A study of Mus musculus with 18 samples.

Results

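Collagen and laminin chains are the 55 genes whose symbols follow the patterns of collagen alpha chains (Col, a type number, a, a chain number; 44 genes) and of laminin alpha, beta and gamma chains (Lama, Lamb or Lamc and a number; 11 genes). All 55 were present in both deposited tables, among 56691 features in the estradiol experiment and 56893 in the Torin experiment. They were taken by name alone, with no threshold on a measured value, although this gene family was picked with earlier results of these data known. For description they were put in 7 classes: 11 fibrillar collagens, 6 chains of type IV collagen, 11 laminin chains, 4 collagens of the basement membrane zone (Col7a1, Col15a1, Col17a1 and Col18a1), 9 FACIT collagens (fibril-associated collagens with interrupted triple helices), 9 beaded and network collagens (types VI, VIII and X) and 5 transmembrane and other collagens. The type IV, laminin and zone classes together are called basement membrane chains here (21 genes).

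Collagen chains wind into triple helices of identical or different alpha chains. Fibrillar collagens are secreted as procollagens, trimmed and cross-linked into the fibrils of the interstitial matrix, and in tissues are made mainly by mesenchymal cells. Type IV collagen and laminins, each laminin a trimer of an alpha, a beta and a gamma chain, form the sheets of the basement membrane on which mammary epithelium rests. Matrigel, the gel used for the cultures of the Torin experiment, is an extract of such a membrane, and the protein it brings is not seen by RNA sequencing.

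The libraries came from mammary epithelial organoids, small 3-dimensional cultures of gland epithelium, of nulliparous wild-type C57BL/6 mice, grown in EpiCult-B medium. In the estradiol experiment, cultures from mice of about 24 weeks received 10 nM estradiol, an estrogen receptor ligand, or its vehicle ethanol for 11 of 12 days. In the Torin experiment, cultures from mice of about 15 weeks in Matrigel droplets received the mTOR kinase inhibitor Torin 1 at 100 nM, or DMSO as vehicle, in arms named D6 and D12, and were kept for 18 days; all of them received more Matrigel during the culture. The titles give the arms 6 and 12 days of treatment, whereas the series design gives 12 days to D6 and 6 days to D12. The arms also carry different batch tags, so arm, batch and treatment length cannot be told apart. Each of the 6 groups had 3 libraries; what separates the libraries of a group is not stated, so the p-values measure only the spread between these libraries, which may be technical.

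The estradiol libraries held 20637765 to 24312389 counts and the Torin libraries 23239364 to 28910688. The third Torin D6 library stood apart: its mean correlation with the others of its group over genes was 0.9714, against 0.984 and 0.9821 for those and at least 0.991 in every other group. What changed when it was left out is given beside the Torin results it touches. All 9 basal and all 9 luminal epithelial markers were at 1 CPM (the count relative to library size, scaled as usual for this unit) or higher in every group. At least 10 of 12 fibroblast genes outside the collagens, 3 of 5 pericyte and 3 of 5 Schwann cell markers were so as well. Endothelial markers summed to 4.24 to 14.3 CPM over 7 genes, adipocyte markers to 0.225 to 1.16 CPM over 6 and immune markers to 1.7 to 12 CPM over 7; Cldn5, Emcn, Cdh5, Lep, Adipoq, Cidec, Cd3e, Adgre1 and Cd79a had no count in at least 1 group. In bulk RNA, fewer cells of a type and less RNA per cell cannot be told apart, and this holds for every result on these genes.

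The 55 genes took 0.571 to 0.599% of all counts with ethanol and 0.647 to 0.696% with estradiol. With DMSO they took 0.509 to 0.582% in D6 and 0.519 to 0.571% in D12, and with Torin 0.287 to 0.38% in D6 and 0.541 to 0.555% in D12. Levels were compared between genes per length, as CPM per kilobase of the longest coding transcript. On that scale the highest chain with ethanol was Col18a1, whose product releases endostatin, at 146 ± 2.11 CPM per kb (SD, n = 3). It was followed by Col17a1, a transmembrane collagen of hemidesmosomes, at 114 ± 1.07, and the laminin-332 chain Lamb3 was at 74.2 ± 2.71. With DMSO in D6, Col9a1 (88.7 ± 6.42), Col18a1 (80.2 ± 3.29) and Lamb3 (80 ± 7.76) were among the highest and overlapped within their spread. The highest fibrillar chain there was Col1a1, at 68.7 ± 14.5 CPM per kb.

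Summed per length, fibrillar collagens amounted to 12.1 to 13.7% of the basement membrane chains with ethanol and 14.7 to 15.4% with estradiol. With DMSO the same quantity was 39.1 to 54.9% in D6 and 37.8 to 41% in D12, and with Torin 14.7 to 16.1% in D6 and 35.8 to 47.1% in D12. The treated libraries lay apart from their vehicle libraries with estradiol and in D6, and overlapped them in D12. The experiments were normalized separately, but this ratio within each library does not depend on that scaling. Ratios of some partner chains also differed between the vehicle groups of the experiments. Per length, Col4a1 stood at 1.3 ± 0.0235 times Col4a2 with ethanol and 0.642 ± 0.028 times with DMSO in D6 (SD, n = 3). Col6a1 stood at 2.02 ± 0.133 and 3.36 ± 0.191 times Col6a2. The gap between the vehicle groups of the experiments was not tested.

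**Figure D1:**
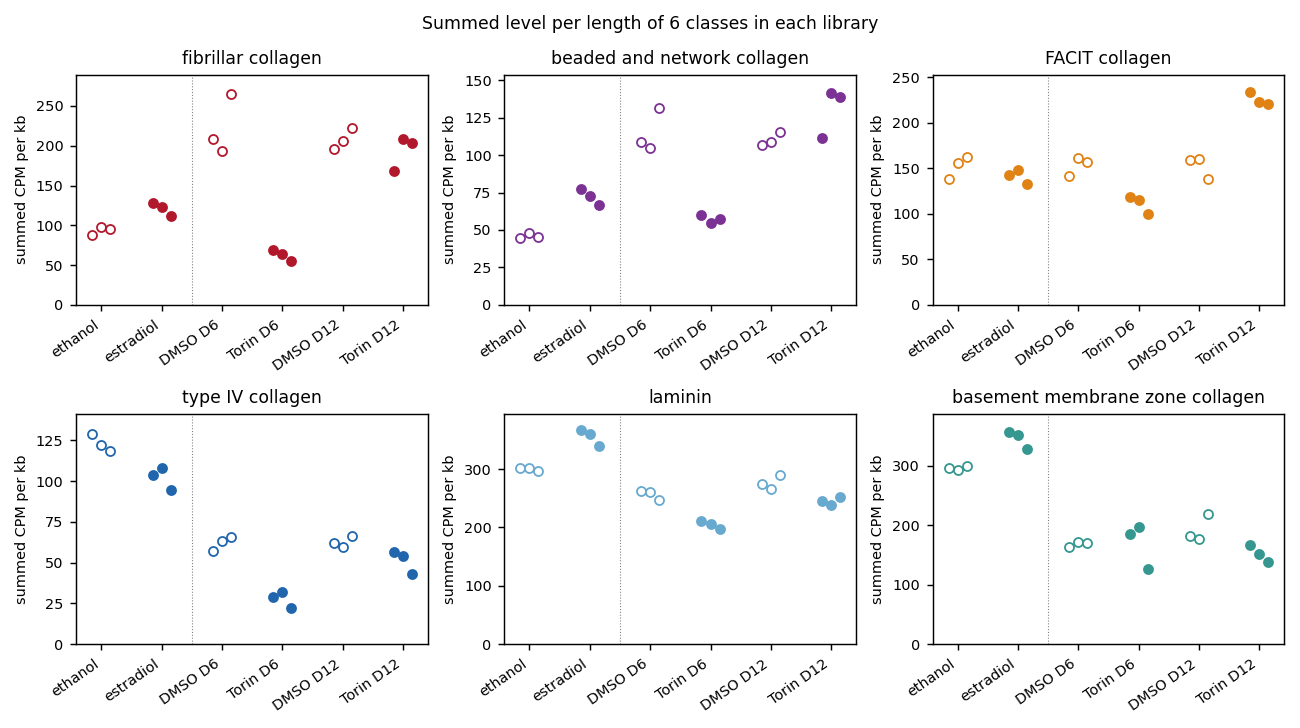
Summed CPM per kb (y axis) of the members of 6 classes in each library, by group (x axis), with 3 libraries per group; filled points are treated groups. The 3 Torin D6 libraries lie at 55.5 to 68.6 for fibrillar collagens, below the 194 to 265 of their DMSO libraries, while for the collagens of the basement membrane zone these groups overlap through the third Torin library alone (185.5, 197.4 and 126 against 163.2 to 171.2 with DMSO).

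Estradiol raised most fibrillar and type VI collagen chains and lowered Col4a5, Col4a6 and several FACIT collagens. Of the 45 members with enough counts to be tested, 23 rose and 12 fell, against 17.4% of all 15358 tested genes that rose and 16.6% that fell. The median log2 fold change of the 45 was 0.21 and that of all genes -0.01. Fibrillar collagens had 8 rises and 1 fall among 10 (median log2 0.64; 5 and 0 with an offset for gene length), beaded and network collagens 6 and 1 among 7 (0.73), and basement membrane chains 7 and 4 among 18 (0.12). Among the last, type IV chains had 0 rises and 2 falls among 4, laminins 4 and 2 among 10, and zone collagens 3 and 0 among 4. FACIT collagens had 1 rise and 4 falls among 7 (median log2 -0.41), and transmembrane and other collagens 1 and 2 among 3 (-1.03). Differences between classes were not tested.

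**Figure D2:**
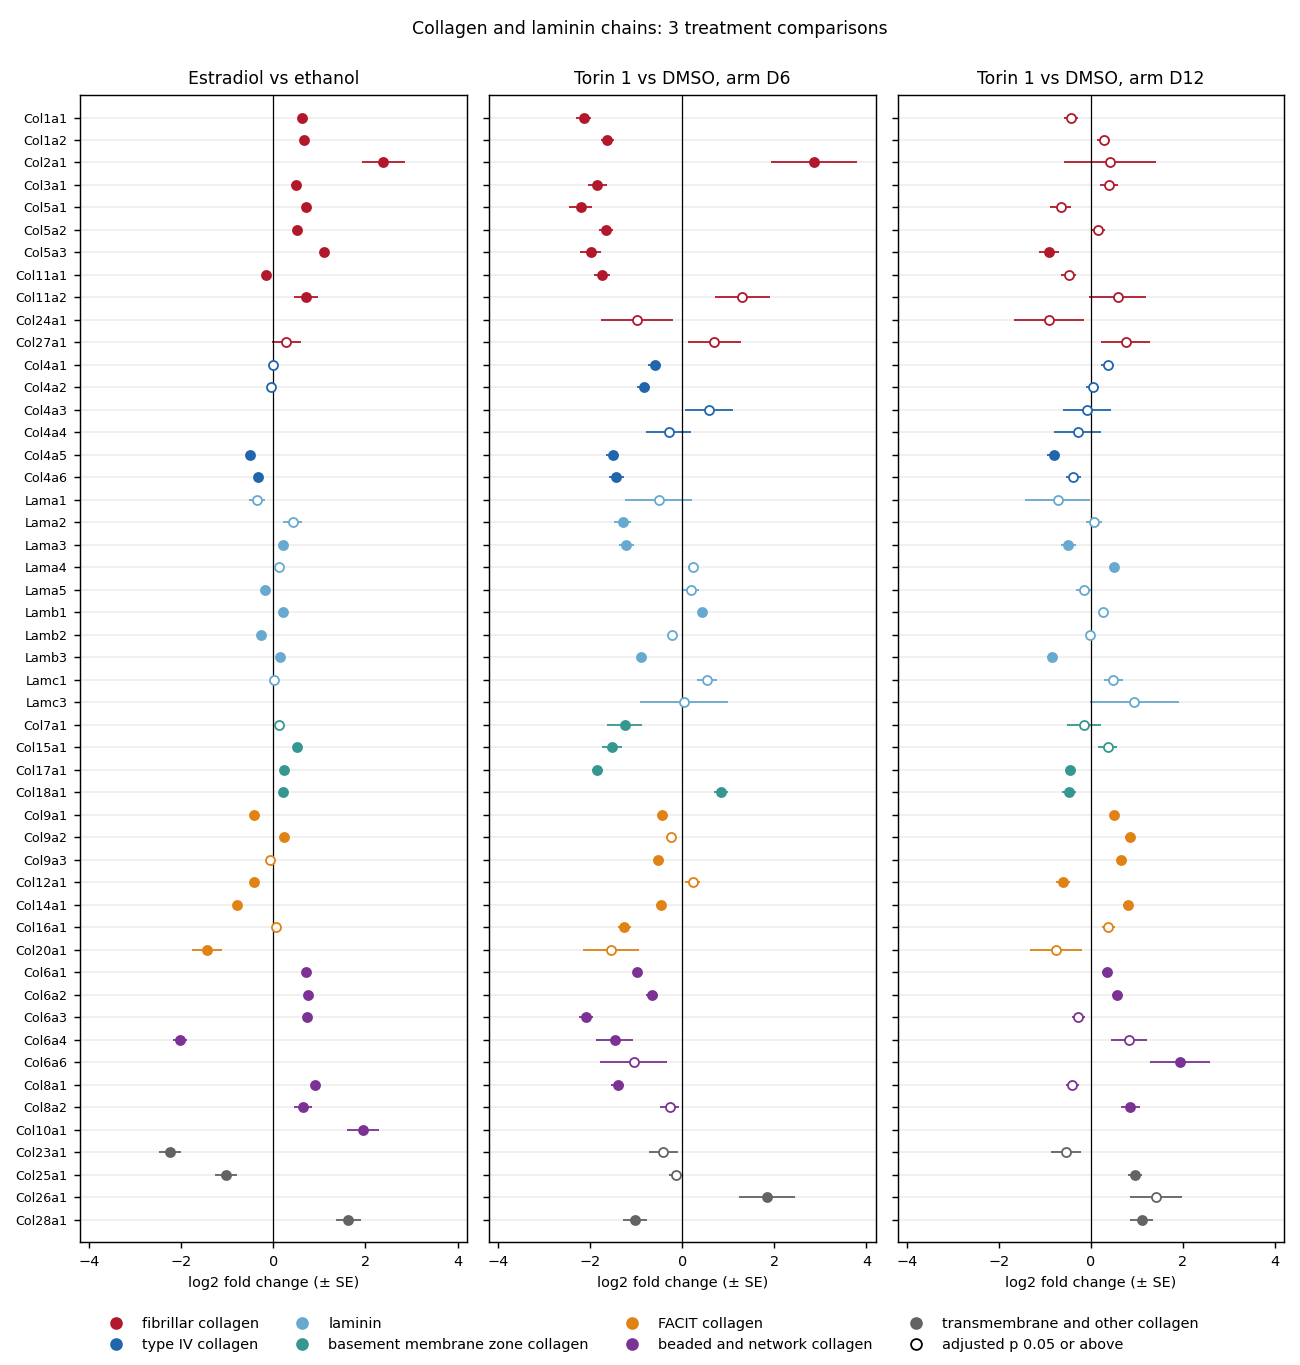
Log2 fold change with its standard error of the tested members shown, coloured by class, for estradiol against ethanol and for Torin 1 against DMSO in the arms D6 and D12, with 3 libraries per group; filled points are members past the adjusted p of 0.05. With estradiol 8 of 10 fibrillar and 6 of 7 beaded and network collagens rose, and with Torin 27 of 50 members fell in D6 against 7 of 50 in D12.

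Col1a1, the chain that pairs with Col1a2 in type I collagen, was at 88.2, 89.6 and 88.9 CPM with ethanol and 145, 139.9 and 123 with estradiol. Col1a2 was at 87.3, 103 and 93.5 CPM with ethanol and 155.5, 152 and 141 with estradiol. The groups did not overlap for either chain, which rose alike (Col1a1 log2 0.61, SE 0.057, adjusted p = 1.26e-06; Col1a2 log2 0.66, SE 0.059, adjusted p = 8.44e-07). Col3a1, the chain of type III collagen, was at 49.9, 60.5 and 57.1 CPM with ethanol and 92.4, 74.3 and 67.5 with estradiol, also without overlap (log2 0.485, SE 0.094, adjusted p = 0.00104). Type V chains, which take part in starting type I fibrils, rose as well: Col5a1 by log2 0.72 (SE 0.072), Col5a2 by 0.505 (SE 0.082) and Col5a3 by 1.1 (SE 0.086).

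Among the other fibrillar chains, the cartilage collagen gene Col2a1 was low, at 0.0972 to 0.336 CPM with ethanol and 0.831 to 1.18 with estradiol (log2 2.39, SE 0.46, adjusted p = 0.000934). The low type XI chain Col11a2, at 1.22 to 2.10 CPM with ethanol and 2.21 to 3.02 with estradiol, rose too (log2 0.71, SE 0.26, adjusted p = 0.0454). Its partner Col11a1, at 275 to 295 CPM with ethanol and 238 to 271 with estradiol, fell by 0.15 (SE 0.049, adjusted p = 0.0252) on the log2 scale. Col27a1 (0.28, adjusted p = 0.532) did not pass, and Col24a1, with 47 counts over the 6 libraries, was too low to be tested. Beside these rises, 4 of 11 tested fibroblast markers rose (Thy1, Fbln2, Pdgfrb and Lum) and 2 fell (Fbln1 and Postn; median of the list log2 0.25); the 12 summed to 2370 to 2600 CPM with estradiol and 2680 to 2780 with ethanol. Without Fn1 and Postn, a choice made after the values were seen, the sum went the other way, at 478 to 531 CPM with estradiol and 425 to 438 with ethanol. Of the other cell type markers, 1 of 9 basal markers rose and 6 fell (median log2 -0.45; sum 8300 to 8770 CPM with estradiol, 8090 to 8590 with ethanol), 1 of 9 luminal markers rose and 4 fell (4290 to 4430 and 4690 to 4820), 2 of 4 tested Schwann cell markers fell (154 to 165 and 205 to 219) and 0 of 4 pericyte markers passed. The part of any of these cells in the collagen result was not tested.

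To show the start regions of fibrillar genes that rose together, the RefSeq windows (GRCm38.p6) of Col1a2, at chr6:4505368-4505667, and Col3a1, at chr1:45311288-45311587, both on the plus strand, run from 250 bases before to 50 after the annotated start. Capitals mark CCAAT, or ATTGG where that motif lies on the other strand.
Col1a2: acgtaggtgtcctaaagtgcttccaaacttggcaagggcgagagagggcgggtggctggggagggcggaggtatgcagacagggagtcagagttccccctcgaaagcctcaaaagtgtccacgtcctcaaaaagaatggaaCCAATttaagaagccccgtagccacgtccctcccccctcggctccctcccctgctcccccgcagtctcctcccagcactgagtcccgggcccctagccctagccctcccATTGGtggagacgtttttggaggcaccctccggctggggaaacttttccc
Col3a1: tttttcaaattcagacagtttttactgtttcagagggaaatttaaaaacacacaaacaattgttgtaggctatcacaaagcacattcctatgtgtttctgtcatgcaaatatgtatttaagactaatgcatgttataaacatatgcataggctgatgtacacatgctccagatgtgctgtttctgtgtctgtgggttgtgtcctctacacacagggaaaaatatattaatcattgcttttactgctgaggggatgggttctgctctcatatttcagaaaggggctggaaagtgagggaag

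The Col1a2 window held 2 such matches and the Col3a1 window 0, beside a GC content of 61% and 37.7%. Of all 32851 windows of 300 bases, 37.4% held CCAAT on either strand, as did 14 of the 44 windows of the 40 members matched (31.8%), 3 of 8 of fibrillar collagens (37.5%), 7 of 16 of basement membrane chains (43.8%) and 4 of 20 of other collagens (20%). GGGCGG on either strand was in 35.7% of all windows, in 6 of the 8 fibrillar windows (75%), 9 of the 16 (56.2%) and 11 of the 20 (55%). The letters do not say that a factor binds there.

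Type VI collagen, which forms beaded filaments around cells, rose in its main chains with estradiol. Col6a1 was at 86.6, 85.2 and 82.0 CPM with ethanol and 147, 138 and 126 with estradiol (log2 0.70, SE 0.055, adjusted p = 2.16e-07). Col6a2, its neighbour on chromosome 10, rose by log2 0.76 (SE 0.063) and Col6a3 by 0.73 (SE 0.095), and for all 3 chains the groups were apart. Col6a4 moved the other way, from 19.4, 26.9 and 28.4 CPM with ethanol to 6.07, 7.20 and 4.98 with estradiol (log2 -2.03, SE 0.15, adjusted p = 1.09e-07). The network-forming chain Col8a1, at 28.0 to 31.4 CPM with ethanol and 54.0 to 56.5 with estradiol, rose (log2 0.90, SE 0.055, adjusted p = 1.37e-08), as did Col8a2 (log2 0.65, SE 0.2, adjusted p = 0.0231). Col10a1, a collagen of growth plate cartilage, was low, at 0.252 to 0.562 CPM with ethanol and 1.35 to 1.93 with estradiol (log2 1.95, SE 0.35).

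FACIT collagens sit on the surface of fibrils. Col14a1, of this class, was at 34.8, 36.6 and 42.0 CPM with ethanol and 24.6, 21.7 and 19.4 with estradiol (log2 -0.78, SE 0.087, adjusted p = 7.1e-06). Col12a1 fell by 0.42 (SE 0.048) and Col9a1 by 0.41 (SE 0.042) on the log2 scale, and for these 3 chains every estradiol library was below every ethanol library. Col20a1 fell by 1.44 (SE 0.33), Col9a2 rose by log2 0.24 (SE 0.071), and Col9a3 (-0.06) and Col16a1 (0.05) did not pass. Per length, Col9a1 stood at 1.51 ± 0.153 times its trimer partner Col9a2 with ethanol and 0.956 ± 0.0489 times with estradiol (SD, n = 3). Of the transmembrane and other collagens, Col23a1 (8.70 to 10.0 CPM with ethanol, 0.799 to 2.58 with estradiol) fell by 2.25 (SE 0.24), Col25a1 fell by 1.03 (SE 0.24) and Col28a1 rose by log2 1.63 (SE 0.27).

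**Figure D3:**
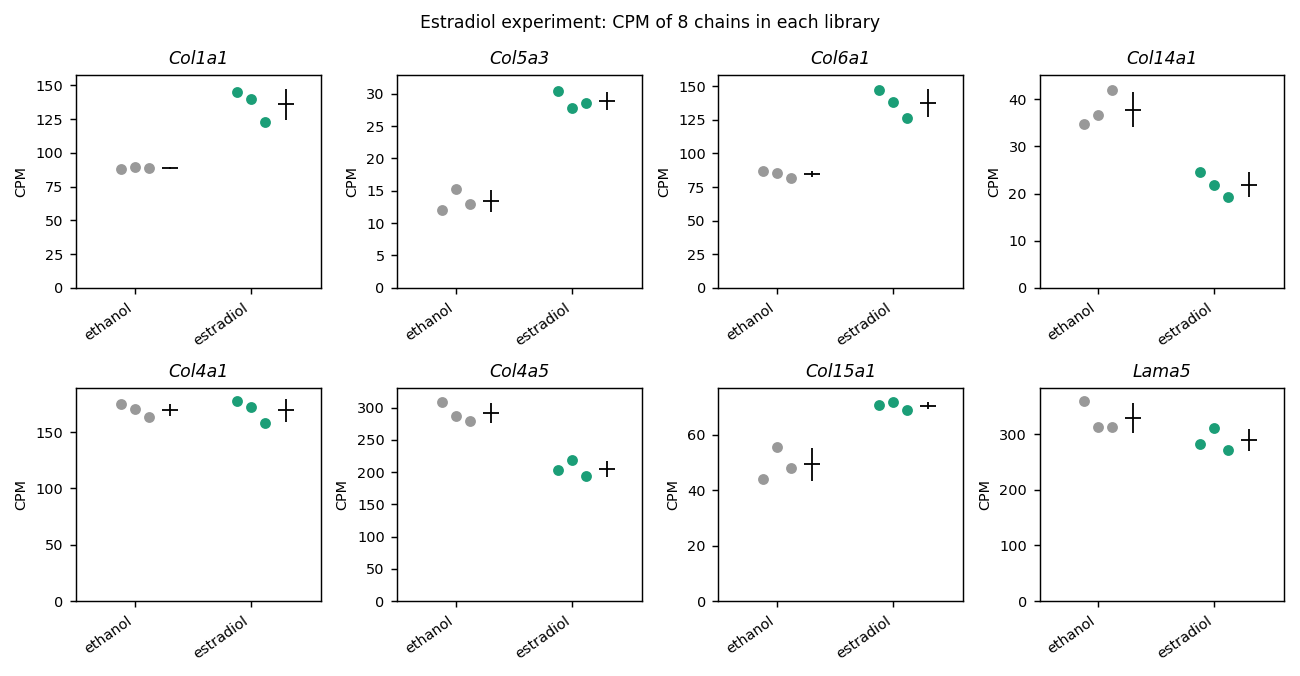
CPM (y axis, from 0) of 8 chains in the 3 ethanol and 3 estradiol libraries (x axis); points are libraries, with the mean and its SD. Col1a1, Col5a3, Col6a1 and Col15a1 lie higher in each estradiol library than in each ethanol library. Col14a1, Col4a5 and, by a small margin, Lama5 lie lower, and Col4a1 overlaps.

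The type IV chains went by pairs. Col4a1 and Col4a2, the chains of the trimer found in nearly all basement membranes, did not pass: Col4a1 was at 175, 171 and 164 CPM with ethanol and 177, 172.5 and 158 with estradiol (log2 0.00, SE 0.049, adjusted p = 0.963), and Col4a2 had log2 -0.06, SE 0.06, adjusted p = 0.476. Col4a5 was at 309, 286.5 and 279.8 CPM with ethanol and 203.5, 218 and 194 with estradiol, without overlap, and fell by 0.51 (SE 0.051, adjusted p = 2.81e-06). Its neighbour and partner on the X chromosome, Col4a6, fell by 0.34 (SE 0.058). Col4a3 (26 counts over the 6 libraries) and Col4a4 (57) were too low to be tested.

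Among laminins, Lama3 and Lamb3, chains of laminin-332, the laminin of hemidesmosomes, rose with estradiol. Lama3 was at 290.4, 296 and 272 CPM with ethanol and 343, 324 and 324 with estradiol (log2 0.21, SE 0.044, adjusted p = 0.00201), and Lamb3 at 360.5, 374.5 and 348 and 421, 401 and 374 CPM (log2 0.14, SE 0.047, adjusted p = 0.0287). Lamb1, a beta chain shared by laminin-111 and laminin-511, rose by log2 0.20 (SE 0.045), while Lamb2 fell by 0.265 (SE 0.053) and Lama5, the alpha chain of laminin-511, by 0.19 (SE 0.06, adjusted p = 0.0254). Lamc1 (0.01), Lama4 (0.12, adjusted p = 0.0533), Lama2 (0.42) and Lama1 (-0.355) did not pass, and Lamc3 was too low to be tested.

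Of the zone collagens, Col15a1 was at 44.0, 55.5 and 48.1 CPM with ethanol and 70.7, 71.6 and 69.0 with estradiol (log2 0.52, SE 0.066). Col17a1 rose by log2 0.24 (SE 0.039) and Col18a1 by 0.21 (SE 0.041), and the anchoring fibril collagen Col7a1 (0.12, adjusted p = 0.0892) did not pass. Leaving out 1 library ended the calls of 6 members, at adjusted p of 0.0555 to 0.172; the number of libraries that did so, of 6, stands after each: Col11a1 (4), Col11a2 (5), Col8a2 (3), Col9a2 (2), Lama5 (3) and Lamb3 (3). An offset for gene length ended the calls of Col2a1, Col3a1 (adjusted p = 0.0517), Col8a2, Col11a1, Col11a2, Col20a1, Lama5 and Lamb3 and added Col7a1. Col6a5, Col6a6, Col13a1, Col19a1, Col22a1 and Col26a1 were too low to be tested, with 9 to 54 counts each.

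Torin in the D6 arm lowered chains of every class and raised Col18a1, Lamb1 and the low Col2a1 and Col26a1. Of 50 members tested, 4 rose and 27 fell (median log2 -0.74), against 19.8% of all 18112 tested genes that rose and 19.3% that fell (median 0.05). Fibrillar collagens had 1 rise and 7 falls among 11 (median log2 -1.65), basement membrane chains 2 and 10 among 21 (-0.51), and the remaining collagens 1 and 10 among 18 (-0.59). Among basement membrane chains, type IV had 0 rises and 4 falls among 6, zone collagens 1 and 3 among 4, and laminins 1 and 3 among 11. Without the third Torin library laminins had 3 rises and 4 falls, and the counts of the other classes were the same.

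Col1a1 was at 376, 342 and 505 CPM with DMSO and 102, 91.0 and 84.2 with Torin in D6 (log2 -2.14, SE 0.16, adjusted p = 9.86e-07). Col1a2 was at 269.6, 222 and 325 CPM with DMSO and 93.9, 87.7 and 81.5 with Torin (log2 -1.63, SE 0.14, adjusted p = 4.54e-06). Every Torin library was below every DMSO library for both, and per length Col1a1 stood at 1.35 ± 0.0802 times Col1a2 with DMSO and 0.948 ± 0.0256 times with Torin. Col3a1 fell by 1.84 (SE 0.2), Col5a1 by 2.20 (SE 0.25), Col5a2 by 1.65 (SE 0.15), Col5a3 by 1.99 (SE 0.22) and Col11a1 by 1.74 (SE 0.17) on the log2 scale, each without overlap. Col2a1 was at 0.0778, 0.268 and 0.614 CPM with DMSO and 2.41, 2.89 and 1.86 with Torin (log2 2.86, SE 0.93, adjusted p = 0.0293). Col11a2 (1.31), Col24a1 (-0.98) and Col27a1 (0.70) did not pass.

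Beside the fall of fibrillar collagens, 9 of 12 fibroblast markers fell in D6 (Fbln1, Pdgfra, Mfap5, Lum, Fbln2, Pdgfrb, Dcn, Dpt and Pi16; median of the list log2 -1.2) and Fn1 rose. Without the third Torin library Pi16 did not pass (adjusted p = 0.0689) and Thy1 fell (log2 -0.64, adjusted p = 0.0473). The call of Pi16 also ended without the second (0.0588) or the third DMSO library (0.0776). The 12 summed to 2210 to 2500 CPM with DMSO and 2250 to 2480 with Torin; without Fn1 and Postn, a choice made after the values were seen, the sum was 869 to 923 with DMSO and 443 to 538 with Torin. Of 5 Schwann cell markers 3 fell (sum 103 to 107 CPM with DMSO, 41.5 to 86 with Torin, median 45.6), and of 4 tested pericyte markers 2 fell. The Schwann cell marker Sox10 had 555, 483 and 1531 counts in the 3 Torin libraries, the highest in the third. Basal markers summed to 2250 to 2590 CPM with DMSO and 1580 to 2010 with Torin, but 3 of 9 rose and 2 fell (median log2 0.01). Luminal markers summed to 5870 to 6980 and 8260 to 9660 CPM, but 3 of 9 rose and 4 fell (median log2 -0.29). The sums thus do not show the direction of most markers of these 2 lists. The part of any of these cells in the collagen result was not tested.

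**Figure D4:**
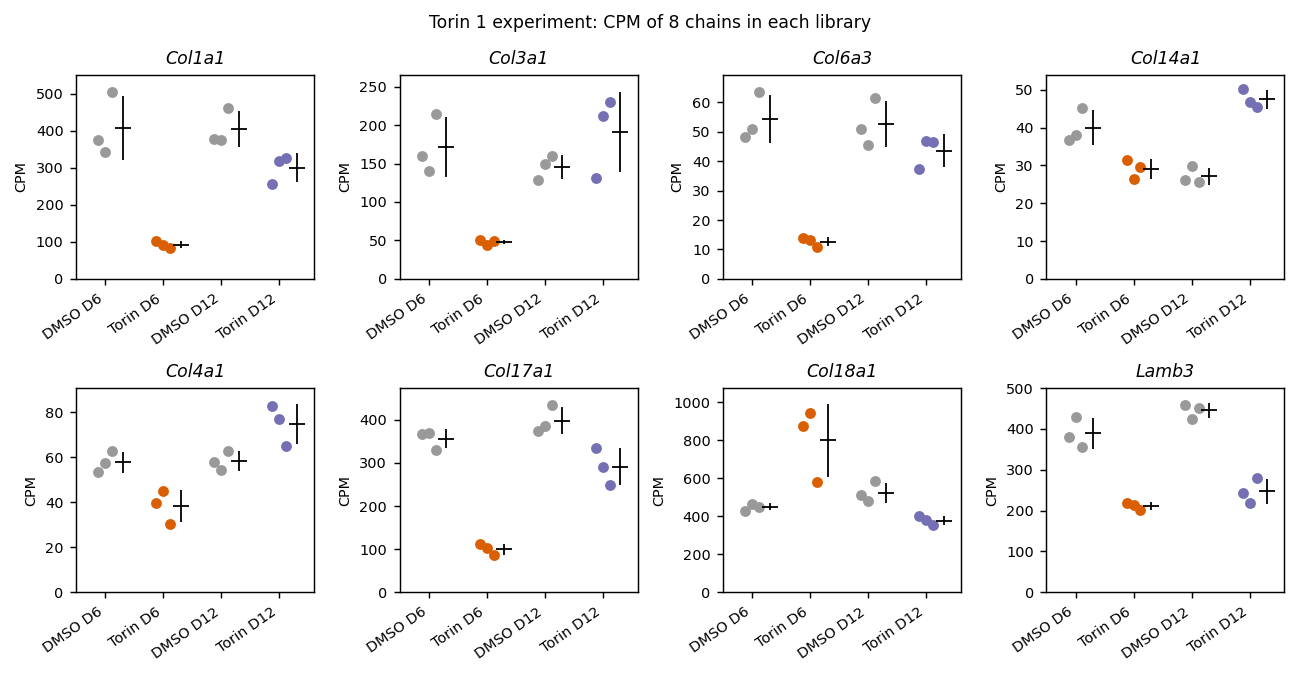
CPM (y axis, from 0) of 8 chains in the 12 libraries of the Torin experiment, by group (x axis); points are libraries, with the mean and its SD. In D6 the Torin libraries lie above their DMSO libraries for Col18a1 and below them for the other chains. In D12 they lie above for Col14a1 and Col4a1, below for Col1a1, Col17a1, Col18a1 and Lamb3, and overlap for Col3a1 and Col6a3. Of those apart in D12, Col1a1 and Col4a1 did not pass the threshold.

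Type VI chains fell unequally in D6: Col6a3 by 2.09 (SE 0.16) on the log2 scale, Col6a1 by 0.98 (SE 0.1) and Col6a2 by 0.655 (SE 0.13). Col6a3 was at 48.1, 51.1 and 63.5 CPM with DMSO and 14.0, 13.1 and 11.0 with Torin, and per length it stood at 0.273 ± 0.025 times Col6a2 with DMSO and 0.1 ± 0.0113 times with Torin. Col8a1 fell by 1.40 (SE 0.14) and Col6a4 by 1.46 (SE 0.4), whereas Col8a2 (-0.27) and Col6a6 (-1.05) did not pass. Of the FACIT class, Col16a1 fell by 1.26 (SE 0.14), Col9a3 by 0.52 (SE 0.12), Col14a1 by 0.46 (SE 0.11) and Col9a1 by 0.445 (SE 0.099), and Col12a1 (0.23), Col9a2 (-0.25) and Col20a1 (-1.55) did not pass. Col28a1 fell by 1.03 (SE 0.26), Col26a1 rose (log2 1.84, SE 0.6, adjusted p = 0.0289; 0.194 to 0.850 CPM with DMSO, 1.25 to 1.73 with Torin), and Col23a1 (-0.41) and Col25a1 (-0.13) did not pass.

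The type IV genes Col4a1 and Col4a2 lie head to head on chromosome 8 and both fell in D6. Their RefSeq windows (GRCm38.p6), shown because the pair shares its start region, are chr8:11312777-11313076 on the minus strand for Col4a1 and chr8:11312555-11312854 on the plus strand for Col4a2. The annotated starts are 21 bases apart and the windows share 78 bases. Capitals again mark CCAAT or ATTGG.
Col4a1: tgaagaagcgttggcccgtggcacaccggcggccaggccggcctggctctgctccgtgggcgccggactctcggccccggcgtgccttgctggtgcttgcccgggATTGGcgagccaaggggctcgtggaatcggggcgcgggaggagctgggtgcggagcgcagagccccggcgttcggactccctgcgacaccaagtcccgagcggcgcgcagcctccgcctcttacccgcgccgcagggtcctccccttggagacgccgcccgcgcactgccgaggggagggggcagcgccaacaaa
Col4a2: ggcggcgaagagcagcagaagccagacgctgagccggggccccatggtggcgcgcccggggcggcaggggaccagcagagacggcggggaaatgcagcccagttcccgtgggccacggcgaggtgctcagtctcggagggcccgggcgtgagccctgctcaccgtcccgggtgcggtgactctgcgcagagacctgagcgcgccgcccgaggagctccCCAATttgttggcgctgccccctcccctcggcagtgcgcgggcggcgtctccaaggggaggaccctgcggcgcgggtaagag

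Each window held 1 such match, with a GC content of 74% for Col4a1 and 73.7% for Col4a2. Counted from each gene's own annotated start, the match began at -145 for Col4a1 and at -32 for Col4a2. These are different sites, and neither lies wholly within the shared bases. Col4a1 was at 53.4, 57.3 and 62.6 CPM with DMSO and 39.8, 44.8 and 30.4 with Torin in D6 (log2 -0.59, SE 0.14, adjusted p = 0.00495). Col4a2 was at 77.5, 90.8 and 95.3 CPM with DMSO and 50.6, 57.3 and 40.4 with Torin (log2 -0.83, SE 0.14, adjusted p = 0.000549). The groups were apart for both chains, and the third Torin library was the lowest. Col4a5 (171 to 187 CPM with DMSO, 49.9 to 71.4 with Torin) fell by 1.51 (SE 0.14) and Col4a6 by 1.43 (SE 0.16). Per length, Col4a5 stood at 2.28 ± 0.14 times Col4a6 with DMSO and 2.17 ± 0.143 times with Torin. Col4a3 (0.59) and Col4a4 (-0.29), both low, did not pass.

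In the zone class, Col17a1 was at 368, 369.9 and 331 CPM with DMSO and 111, 103 and 85.4 with Torin in D6 (log2 -1.84, SE 0.12, adjusted p = 5.42e-07). Col15a1 fell by 1.52 (SE 0.21) and Col7a1 by 1.25 (SE 0.38, adjusted p = 0.023). Col18a1 moved the other way, from 429, 466 and 451 CPM with DMSO to 874, 946 and 582 with Torin (log2 0.835, SE 0.15, adjusted p = 0.000926). All 3 Torin libraries were above the DMSO libraries, the third being the lowest of them. Per length, Col18a1 was the highest of the 55 genes with Torin in D6, at 143 ± 34.5 CPM per kb.

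Laminin chains went in both directions in D6. Lamb3 was at 381, 430.2 and 356 CPM with DMSO and 219, 213 and 201 with Torin (log2 -0.88, SE 0.097, adjusted p = 2.39e-05), and Lama3 fell by 1.21 (SE 0.16). Lamb1 was at 128, 127 and 127 CPM with DMSO and 190.1, 186 and 143 with Torin (log2 0.44, SE 0.095, adjusted p = 0.00313). Lama2, the alpha chain of laminin-211 of muscle and nerve, fell by 1.29 (SE 0.19).

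Lamc1 was at 43.9, 37.5 and 38.4 CPM with DMSO and 43.4, 45.8 and 84.9 with Torin, its high value in the third library, and did not pass (log2 0.54, SE 0.21, adjusted p = 0.0572). Without that library Lama5 (log2 0.39, adjusted p = 0.01) and Lama4 (log2 0.325, adjusted p = 0.0184) rose; with it, Lama5 (0.18, adjusted p = 0.445) and Lama4 (0.24, adjusted p = 0.099) did not pass. Lamb2 (-0.22), Lama1 (-0.51) and Lamc3 (0.04) did not pass either. Leaving out 1 of the 12 libraries ended the calls of Col2a1 (4), Col26a1 (4) and Col7a1 (2), with the number of libraries that did so after each, at adjusted p of 0.0507 to 0.108. Col6a5, Col10a1, Col13a1, Col19a1 and Col22a1 were too low to be tested in the Torin experiment, with 3 to 60 counts each.

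In the D12 arm, 11 members rose and 7 fell with Torin among the same 50 (median log2 0.15), against 10.8% of all genes that rose and 14.6% that fell (median 0.01). Rises were in FACIT (4 of 7), beaded and network (4 of 7) and transmembrane and other collagens (2 of 4) and in 1 of 11 laminins. Fibrillar collagens had 0 rises and 1 fall among 11 (median log2 0.16), basement membrane chains 1 and 5 among 21 (-0.08), and the remaining collagens 10 and 1 among 18 (0.62).

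Col1a1 was at 377, 375 and 461 CPM with DMSO and 256, 319 and 326 with Torin in D12, without overlap, and did not pass (log2 -0.43, SE 0.15, adjusted p = 0.0561). Col1a2 was at 224, 241 and 246.5 CPM with DMSO and 234.5, 327 and 301 with Torin (log2 0.28, SE 0.14, adjusted p = 0.178). The groups overlapped for Col1a2, and per length Col1a1 stood at 1.54 ± 0.141 times Col1a2 with DMSO and 0.946 ± 0.0582 times with Torin. Col5a3 fell, from 20.8, 19.6 and 20.2 CPM to 8.52, 13.6 and 10.1 (log2 -0.91, SE 0.21, adjusted p = 0.00823). Col3a1 (0.39), Col5a2 (0.16), Col5a1 (-0.66, adjusted p = 0.0597), Col11a1 (-0.48, adjusted p = 0.0532), Col2a1 (0.41), Col11a2 (0.58), Col24a1 (-0.92) and Col27a1 (0.75) did not pass.

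All 3 type IX chains, which form 1 trimer, rose in D12. Col9a1 was at 364, 368 and 304 CPM with DMSO and 482, 484 and 505 with Torin (log2 0.505, SE 0.098, adjusted p = 0.00285), Col9a2 rose by log2 0.845 (SE 0.11) and Col9a3 by 0.66 (SE 0.12). Col14a1 was at 26.1, 29.8 and 25.5 CPM with DMSO and 50.2, 46.8 and 45.4 with Torin (log2 0.81, SE 0.11, adjusted p = 0.000226), with the groups apart. Col6a2 rose by log2 0.58 (SE 0.13), Col6a1 by 0.34 (SE 0.1), Col8a2 by 0.855 (SE 0.2), Col28a1 by 1.1 (SE 0.25), Col25a1 by 0.95 (SE 0.16) and the low Col6a6 by 1.94 (SE 0.65). Col12a1 fell by 0.61 (SE 0.16, adjusted p = 0.0162). Col6a3 (-0.27), Col6a4 (0.82), Col8a1 (-0.41, adjusted p = 0.0528), Col16a1 (0.38), Col20a1 (-0.76), Col23a1 (-0.54) and Col26a1 (1.41) did not pass.

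Among the chains that fell in D12, Lamb3 was at 459.6, 425 and 452 CPM with DMSO and 243, 219 and 279.5 with Torin (log2 -0.85, SE 0.097, adjusted p = 7.63e-05). Its partner Lama3 fell by 0.49 (SE 0.16, adjusted p = 0.0388). Col17a1 fell by 0.45 (SE 0.12, adjusted p = 0.0164) and Col4a5 by 0.81 (SE 0.14, adjusted p = 0.00118). Col18a1 fell by 0.48 (SE 0.15, adjusted p = 0.0344), at 511, 481 and 583.5 CPM with DMSO and 399, 379 and 354 with Torin. Lama4, an alpha chain of vessel and mesenchymal membranes, rose, from 44.6 to 47.6 CPM to 62.2 to 65.8 (log2 0.495, SE 0.11, adjusted p = 0.00531).

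The remaining basement membrane chains did not pass in D12: Col4a1 (0.36), Col4a2 (0.03), Col4a3 (-0.08), Col4a4 (-0.29), Col4a6 (-0.38), Col7a1 (-0.16), Col15a1 (0.36), Lama1 (-0.73), Lama2 (0.07), Lama5 (-0.15), Lamb1 (0.27, adjusted p = 0.0594), Lamb2 (-0.01), Lamc1 (0.48) and Lamc3 (0.945). Of the fibroblast markers, Fbln1 and Pdgfra fell and Pdgfrb rose among 12 (sum 2330 to 2450 CPM with DMSO, 2110 to 2650 with Torin), the call of Pdgfra ending when any 1 of 4 libraries was left out (adjusted p of 0.0534 to 0.144). Of 5 Schwann cell markers 1 fell, and of 4 tested pericyte markers 1 rose and 0 fell. Of 9 luminal markers 0 rose and 4 fell (median log2 -0.30, sum 6990 to 7320 CPM with DMSO, 5310 to 5980 with Torin). Basal markers summed to 2930 to 3030 CPM with DMSO and 1730 to 2230 with Torin, but 2 of 9 rose and 3 fell (median log2 0.03). The basal sum thus does not show the direction of most markers of that list. The part of any of these cells in the result was not tested. The third Torin D6 library enters this comparison only through the gene filter, the scaling and the spread, which all 12 libraries share. Without it 27 members passed in place of 18. Added were Col1a1, Col5a1, Col11a1, Col4a6 and Col8a1 as falls and Lamc1, Lamb1, Col4a1 and Col16a1 as rises. Leaving out 1 of the 12 libraries ended the calls of Col6a1 (5), Col6a6 (10), Col12a1 (2), Col17a1 (2), Col18a1 (5) and Lama3 (8), with the number of libraries after each, at adjusted p of 0.0523 to 0.145.

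The effect of Torin differed between the arms for 29 of 50 members by the test of the difference itself, D12 minus D6. It was higher in D12 for 27 and lower for 2, against 5.03% and 5.55% of all 18112 genes (median log2 of the members 0.97, of all genes -0.03). The difference passed for 7 of 11 fibrillar, 6 of 7 beaded and network, 6 of 7 FACIT, 4 of 6 type IV, 3 of 4 zone and 2 of 4 transmembrane and other collagens, and for 1 of 11 laminins, Lama2 (log2 1.35, SE 0.26). Among fibrillar chains it was 2.23 (SE 0.28) for Col3a1, 1.91 (SE 0.2) for Col1a2 and 1.71 (SE 0.21) for Col1a1. The lower ones were Col18a1 (log2 -1.31, SE 0.21, adjusted p = 0.00213), which rose in D6 and fell in D12, and Col12a1 (log2 -0.84, SE 0.23, adjusted p = 0.0372). Lamb3, which fell in both arms, had a difference of log2 0.03, SE 0.14, adjusted p = 0.904, and Lamb1 (-0.17) and Lama3 (0.72, adjusted p = 0.0613) did not pass. Leaving out 1 of the 12 libraries ended the calls of Col12a1 (9), Col4a5 (8), Col5a3 (9), Col6a4 (4) and Col8a2 (6), with the number of libraries after each, at adjusted p of 0.0511 to 0.108. Without the third Torin D6 library 32 passed, Col6a6 and Lama5 among those added. As the labels disagree on which arm was treated for longer, no order in time is read from this.

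**Figure D5:**
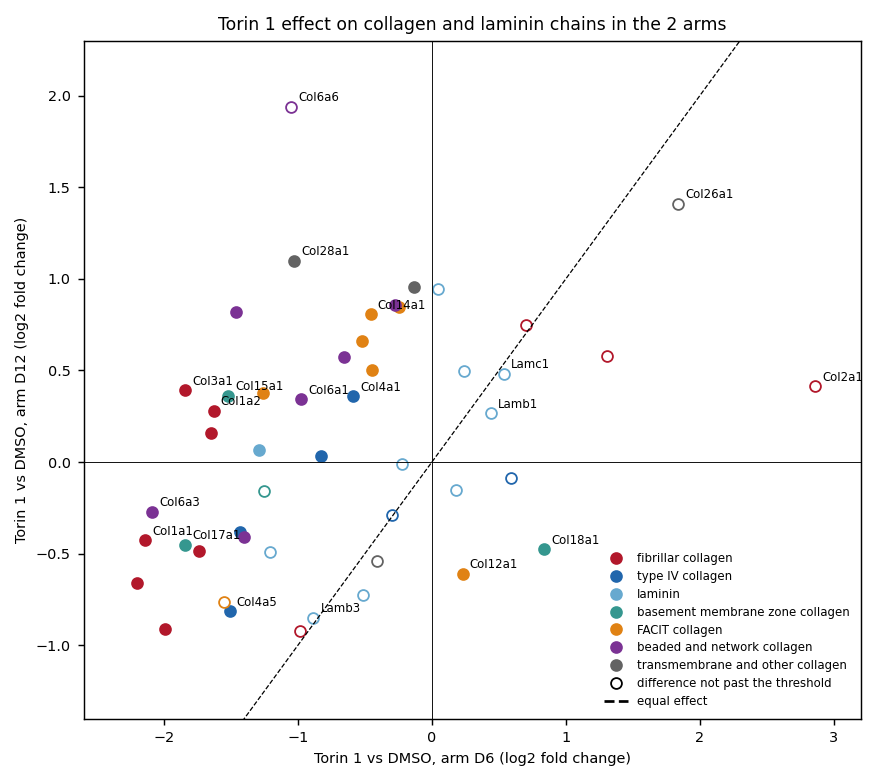
Log2 fold change of Torin 1 against DMSO in the D6 arm (x axis) and the D12 arm (y axis) for the tested members shown, coloured by class; filled points are members whose effect differed between the arms, and the dashed line marks equal effects. Of the 29 filled points 27 lie above the line, Col18a1 and Col12a1 lie below it, and the laminins shown are open except Lama2.

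Between the vehicle libraries of the arms, 0 of 50 members passed in edgeR's quasi-likelihood test, with 3 at an unadjusted p under 0.05 and a lowest adjusted p of 0.776; of all genes 0% were higher in D12 and 0.00552% lower. DESeq2 called 1 member, Col14a1 (log2 -0.565, adjusted p = 0.0114), which was at 36.8 to 45.2 CPM in D6 and 25.5 to 29.8 in D12.

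The estradiol and Torin experiments share no library. Of the 23 members that rose with estradiol, 15 (65.2%) fell with Torin in D6, which is 55.6% of the 27 that fell there: Col1a1, Col1a2, Col3a1, the 3 type V chains, Col6a1, Col6a2, Col6a3, Col8a1, Col15a1, Col17a1, Col28a1, Lama3 and Lamb3. Of the 12 that fell with estradiol, 6 (50%) fell in D6 as well, which is 22.2% of the 27: Col4a5, Col4a6, Col6a4, Col9a1, Col11a1 and Col14a1. Lamb1, Col18a1 and the low Col2a1 rose in both. Over all 13597 genes tested in both experiments, 11.2% of the 2497 that rose with estradiol fell with Torin in D6 and 54.9% rose, and of the 2284 that fell with estradiol 49.7% fell. The 23 members include Col10a1, too low to be tested with Torin, whereas the shares over all genes count only genes tested in both experiments. In D12, of the 23 that rose with estradiol, 5 (21.7%) rose and 5 (21.7%) fell, against 29.8% and 10.3% of all genes that rose with estradiol. Of the 12 members that fell with estradiol, 3 (25%) rose and 2 (16.7%) fell in D12, against 4.16% and 39.1% of all genes that fell. Whether the members differ from other genes in this was not tested.

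Genes that make and bind these chains were taken from 4 lists. Over all tested genes, 17.4% rose and 16.6% fell with estradiol, 19.8% and 19.3% in D6, and 10.8% and 14.6% in D12. Whether any of the 4 lists differs from these shares was not tested. Of 21 tested genes of collagen folding and modification, 6 rose and 6 fell with estradiol, and of 22, 2 rose and 9 fell with Torin in D6 and 1 rose and 7 fell in D12 (medians log2 0.00, -0.24 and 0.06). P4ha2, whose product hydroxylates prolines and so stabilises the helix, was at 102, 120.4 and 115 CPM with DMSO and 24.5, 28.9 and 21.5 with Torin in D6. In D12 it was at 130.2, 118 and 146 CPM with DMSO and 34.3, 25.8 and 32.6 with Torin. It was lower in every Torin library and fell by 2.17 (SE 0.14) in D6, 2.09 (SE 0.14) in D12 and 0.60 (SE 0.083) with estradiol. The lysyl hydroxylase gene Plod1 fell by 2.23 (SE 0.14), 1.29 (SE 0.14) and 0.36 (SE 0.052) in these comparisons. Plod2 fell in D12 by 0.795 (SE 0.096), Sec24d, for the export of large cargo, in D6 by 1.04 (SE 0.071), and P4hb with estradiol by 0.24 (SE 0.04). Fkbp10, a collagen chaperone, rose by log2 0.55 (SE 0.06) with estradiol and 0.30 (SE 0.085) in D12, P3h1 by 0.50 (SE 0.08) and P3h2 by 0.365 (SE 0.049) with estradiol, and Colgalt1 by 1.17 (SE 0.34) and Tmem38b by 0.61 (SE 0.14) in D6. The value of Colgalt1 was 0.52 without the third Torin library (adjusted p = 0.0395), and its call ended without the first or the second DMSO library (adjusted p of 0.0594 to 0.0682). That of Fkbp10 in D12 ended when any 1 of 3 libraries was left out (0.0727 to 0.0957).

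Of 14 tested genes of procollagen processing and cross-linking, 7 rose and 0 fell with estradiol, 5 rose and 8 fell in D6, and 2 rose and 6 fell in D12 (medians log2 0.32, -0.715 and 0.08). The lysyl oxidases, which cross-link fibrils, fell in D6: Loxl2 by 2.37 (SE 0.15), Lox by 2.15 (SE 0.19) and Loxl1 by 1.43 (SE 0.15). In D12, Loxl2 fell by 1.00 (SE 0.15) and Lox by 0.96 (SE 0.18). Loxl4 rose in D6 by log2 1.36 (SE 0.3), and Adamts2, for a procollagen N-proteinase, by 1.80 (SE 0.4) in D6 and 1.37 (SE 0.11) with estradiol; without the third Torin library the D6 value was 0.998 (adjusted p = 0.000819). With estradiol, Bmp1, for a procollagen C-proteinase, rose by 0.41 (SE 0.045) and Loxl3 by 0.75 (SE 0.085). Tll1 rose by 1.71 (SE 0.35) in D6 and 1.57 (SE 0.36) in D12, Pxdn, which cross-links type IV collagen, by 0.52 (SE 0.088) in D12, and Tll2 fell there by 2.33 (SE 0.31).

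Of other basement membrane components, 5 of 16 rose and 2 fell with estradiol, 5 of 17 rose and 6 fell in D6, and 4 rose and 3 fell in D12 (medians log2 0.09, -0.07 and 0.02). Frem2, for a membrane-associated matrix protein, was at 6.32, 5.25 and 5.83 CPM with ethanol and 32.7, 31.3 and 27.3 with estradiol (log2 2.39, SE 0.097), and rose by 2.03 (SE 0.3) in D12. Vwa1 fell by 1.04 (SE 0.06) with estradiol, 1.70 (SE 0.065) in D6 and 0.42 (SE 0.063) in D12. Nid1, which links laminin to type IV collagen, fell by 0.98 (SE 0.066) in D6 and 0.20 (SE 0.066, adjusted p = 0.0456) in D12, and Sparc, for a collagen-binding protein, by 1.84 (SE 0.15) and 0.73 (SE 0.15). With estradiol, Papln rose by log2 0.995 (SE 0.054) and Smoc1 by 0.99 (SE 0.073), and the perlecan gene Hspg2 fell by 0.22 (SE 0.075). In D12 Frem1 rose by 1.47 (SE 0.23) and Papln by 0.35 (SE 0.11), and in D6 Ntn4 by 1.84 (SE 0.39), Tinagl1 by 0.62 (SE 0.14) and Fras1 by 4.36 (SE 0.95). Fras1 was low, at 0, 0 and 6 counts with DMSO and 46, 61 and 32 with Torin in D6. The value of Ntn4 was 1.16 without the third Torin library (adjusted p = 0.00683). With 1 library left out, the D12 calls of Nid1 (9 of 12 libraries, adjusted p of 0.0582 to 0.156) and Papln (6 libraries, 0.0501 to 0.16) and the estradiol call of Hspg2 (4 of 6 libraries, 0.0567 to 0.169) ended.

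Of 17 collagen and laminin receptors tested, 5 rose and 2 fell with estradiol, 5 rose and 7 fell in D6, and 2 rose and 2 fell in D12 (medians log2 0.04, -0.04 and -0.10). The D12 counts were near the shares over all genes, 10.8% and 14.6%. The collagen-binding integrin chain Itga2 rose by 0.39 (SE 0.052) with estradiol and fell by 1.06 (SE 0.12) in D6 and 0.72 (SE 0.12) in D12. Itga11, another such chain, was at 9.13 to 10.3 CPM with DMSO and 1.1 to 1.68 with Torin in D12 (log2 -2.89, SE 0.23). Itgb4, a chain of the laminin-332 receptor of hemidesmosomes, was at 230.4, 221 and 205 CPM with DMSO and 403, 419.9 and 296 with Torin in D6 (log2 0.77, SE 0.12), where Lama3 and Lamb3 fell. The collagen receptor gene Ddr1 rose by 0.545 (SE 0.077) in D6 and 0.26 (SE 0.076) in D12 (a call that ended when any 1 of 5 libraries was left out, at adjusted p of 0.0638 to 0.107), and Dag1, the dystroglycan gene, by 0.27 (SE 0.064) in D6, whereas Ddr2 fell by 2.00 (SE 0.19) and Cspg4 by 2.62 (SE 0.24). Mrc2, whose product takes up collagen, rose by 0.56 (SE 0.13) in D12. With estradiol Sdc1 rose by 0.26 (SE 0.039) and Cspg4 by 0.825 (SE 0.13), and the laminin-binding Bcam fell by 0.42 (SE 0.043) and Itga6 by 0.15 (SE 0.038).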

How the data were processed

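RNA-seq counts of 18 libraries were used. Further Torin samples that the series describes were not analysed here. Per the submitters' processing notes, the build was GRCm39 and the tools named are kallisto, DESeq2, MultiQC, FastQC, cutadapt and Trim Galore, without roles or versions. The authors deposited estimated counts for the estradiol libraries, of which 32.17% were not whole, and these were rounded here. They deposited whole-number counts for Torin. The normalized signal that the authors deposited served only in alternatives. Genes were kept by filterByExpr and scaled by TMM, and each experiment was fitted on its own with edgeR 4.0.16 (glmQLFit and glmQLFTest, R 4.3.3), Torin with all 4 groups sharing 1 spread; calls have a Benjamini-Hochberg adjusted p under 0.05 over all genes tested. SE is the absolute log2 fold change divided by the square root of F, and CPM takes the TMM-scaled size of the filtered library. The biological coefficient of variation was 5.27% (estradiol) and 20.2% (Torin), and the fit was checked on simulated data. Members are all symbols of the naming patterns; from each list of related genes those of lowest p in each direction were named. Members, classes and lists were chosen with earlier results of these data known. Lengths are those of GENCODE transcripts, and promoter windows come from RefSeq for 40 of 55 members. Alternatives were DESeq2 1.42.0, other size factors and count filters, stricter thresholds, limma 3.58.1 on log2(signal + 1), a gene length offset, only the compared groups, a replicate block, and each library left out. A member counted in the class totals is not reported here by its own values.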

Additional observations from a re-analysis of the deposited data

Results flagged for a closer look

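The effect of Torin 1 differed between the D6 and D12 arms, by the test of the difference itself, for 29 of 50 members tested, with 3 libraries in each of the 4 groups. The values are log2 differences of the fold changes, D12 minus D6. Fibrillar collagens had Col1a1 1.71, Col1a2 1.91, Col3a1 2.23, Col5a1 1.55, Col5a2 1.8, Col5a3 1.07 and Col11a1 1.25. Type IV chains had Col4a1 0.952, Col4a2 0.865, Col4a5 0.701 and Col4a6 1.05, and among laminins Lama2 had 1.35. Collagens of the basement membrane zone had Col15a1 1.88, Col17a1 1.38 and Col18a1 -1.31. FACIT collagens had Col9a1 0.95, Col9a2 1.09, Col9a3 1.18, Col12a1 -0.838, Col14a1 1.26 and Col16a1 1.64. Beaded and network collagens had Col6a1 1.32, Col6a2 1.23, Col6a3 1.82, Col6a4 2.28, Col8a1 0.988 and Col8a2 1.13, and transmembrane and other collagens Col25a1 1.09 and Col28a1 2.13. These calls were not equally firm. Leaving out 1 library could end those of Col12a1, Col4a5, Col5a3, Col6a4 and Col8a2. A threshold of adjusted p 0.01 ended those of 9 members. The arms differ in batch tag and in treatment length, which cannot be told apart here.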

How the results depend on the processing

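Of 6889 values of single genes recomputed under the alternatives, 0 reversed, 315 lost their call (136 of them under a threshold of at least 2-fold or of adjusted p 0.01) and 84 gained one. The 35 members called with estradiol became 8 at 2-fold, 28 with limma on the deposited signal and 28 with the gene length offset. Those last 2 alternatives changed the calls of the same members in every comparison, so they are not read as separate checks. The 18 members called with Torin in D12 became 2 at 2-fold, 23 with DESeq2 and 26 when only the compared groups were fitted. Between the DMSO arms DESeq2 called 1 member in place of 0. Leaving out 1 library gave 30 to 34 members with estradiol, 30 to 34 in D6, 14 to 27 in D12, 24 to 32 for the difference between arms and 0 to 0 between the DMSO arms. The labels do not say whether equal replicate numbers pair the samples. Deviations of same-numbered libraries correlated at -0.0964 to -0.0415 over 3 pairs (estradiol) and -0.416 to 0.141 over 18 (Torin). Differently numbered Torin libraries correlated at -0.332 to 0.39, so these values cannot decide whether samples were paired. With the replicate block 34, 30, 18, 27 and 0 members passed, in place of 35, 31, 18, 29 and 0. Precision is limited by 3 libraries per group and by counts too low to test 10 members with estradiol and 5 with Torin.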
